A study of Mus musculus with 9 samples.

Results

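The anaphase-promoting complex, or cyclosome (APC/C), was examined through 10 of its genes in polysome-bound mRNA of mouse oocytes. The genes were chosen by name, with earlier results of these data known. From its tetratricopeptide repeat (TPR) lobe they took in Cdc16, Cdc23, Cdc26 and Cdc27, but not Anapc7, which is given below with other pathway genes. The rest of the 10 were the activators Cdc20 and Fzr1, the E2 enzymes Ube2c and Ube2s, securin (Pttg1) and separase (Espl1). All 10 were among the 18193 genes measured, and they had 24 of the 45037 probe sets that were not controls. Of these 24, 16 had a mean signal at or above the median gene, an intensity of 37.5, and 8 lay below it.

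Oocytes were at the germinal vesicle stage (GV, prophase arrest, 0 h after hCG), at metaphase I (MI, 4 h) or at metaphase II (MII, 14 h), with 3 arrays at each stage. All mice had received PMSG, a gonadotropin that stimulates follicle growth, 48 h before human chorionic gonadotropin (hCG), which triggers maturation and ovulation. No strain, age or genotype is given in the labels used here, the MI samples carry the unexplained name pGVB, and the molecule field reads total RNA while the source field names polysome-bound transcripts. The arrays are called biological replicates from independent sample sets, with no word on the mice behind each set. P-values thus reflect the spread among these arrays, part of which may be technical.

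The APC/C is a ubiquitin ligase that marks cyclin B and securin for destruction at the onset of anaphase. Its TPR subunits stack into an arc-shaped lobe that receives the activators, Cdc20 in metaphase and anaphase and Fzr1 (Cdh1) mainly outside M phase. In mouse oocytes Fzr1 helps to keep the GV arrest, and the metaphase II arrest rests on inhibition of the APC/C by Emi2 (Fbxo43). Ube2c starts the ubiquitin chain and Ube2s extends it. Securin holds separase inactive until it is degraded, and separase then cleaves cohesin, which contains Rec8 in meiosis.

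An array median lay between 12.41 and 13.24, and 53.1% to 54.8% of probe sets on an array lay below an intensity of 16, near background. Precision is limited by having 3 arrays a stage. All 10 oocyte markers examined were measured, and 9 or 10 of them lay at or above the median gene on every array, with summed intensities of 57622 to 61715 in GV, 50804 to 55810 in MI and 32318 to 38258 in MII. Of the 19 markers of granulosa, cumulus and theca cells 16 were measured, with sums of 881 to 962 in GV, 899 to 1446 in MI and 329 to 677 in MII. The array MI 3 had the highest of these sums and 12 of the 16 markers at or above the median gene, against 2 to 4 on each GV and MII array. The 7 measured of 8 blood, immune and endothelial markers summed to 169 to 349 in GV, 121 to 616 in MI and 616 to 880.4 in MII, with Pecam1 the brightest in MII. No marker was listed at 0. Polysome-bound signal combines the amount of an mRNA with its ribosome loading, and these cannot be told apart here, nor can fewer cells of a type and less RNA per cell.

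Between GV and MII most of the 10 genes showed no change that passed, and 7 of them did not in the fit over genes. Cdc27 and Espl1 rose and Ube2s fell from GV to MII, and Cdc20 rose at 2 of its 3 probe sets, while no change of Pttg1 passed. In limma's fit with 1 probe set per gene, 2 of the 10 genes rose and 1 fell from GV to MII, where 5.46% of all genes rose and 8.8% fell. Between MI and MII 1 gene rose (Cdc26) and 2 fell (Ube2c and Ube2s), beside 2.54% up and 6.78% down over all genes. Of all genes called between MI and MII 27.3% rose, a share of 42.2%, 41.3% or 39.7% when arrays were quantile normalized, scaled to a common 95th percentile or centred. From GV to MI none passed, as for all genes (0%), and 7.19% of all genes had an unadjusted p under 0.05. At that unadjusted threshold Cdc27 and Espl1 were higher in MI than in GV (limma adjusted p = 0.447 and 0.477). An F test over the stages called 3 of the 10 genes, Cdc27 (adjusted p = 0.00904), Ube2s (0.0103) and Ube2c (0.0424), beside 11.6% of all genes. Every MII array lay above every GV array for 2 genes (14.1% of all genes) and below for 3 (17.3%). Set against MI, 3 genes had all MII arrays higher (11.7%) and 3 had all lower (15.3%), while MI lay wholly above GV for 2 (6.42%) and wholly below for 0 (6% of all genes). The median log2 change of the 10 genes was -0.02 from GV to MI, -0.55 from MI to MII and -0.17 from GV to MII, beside medians of 0.01, -0.02 and -0.02 over all genes. Log2 changes were taken on log2(intensity + 16), a scale that shrinks changes of dim genes.

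**Figure D1:**
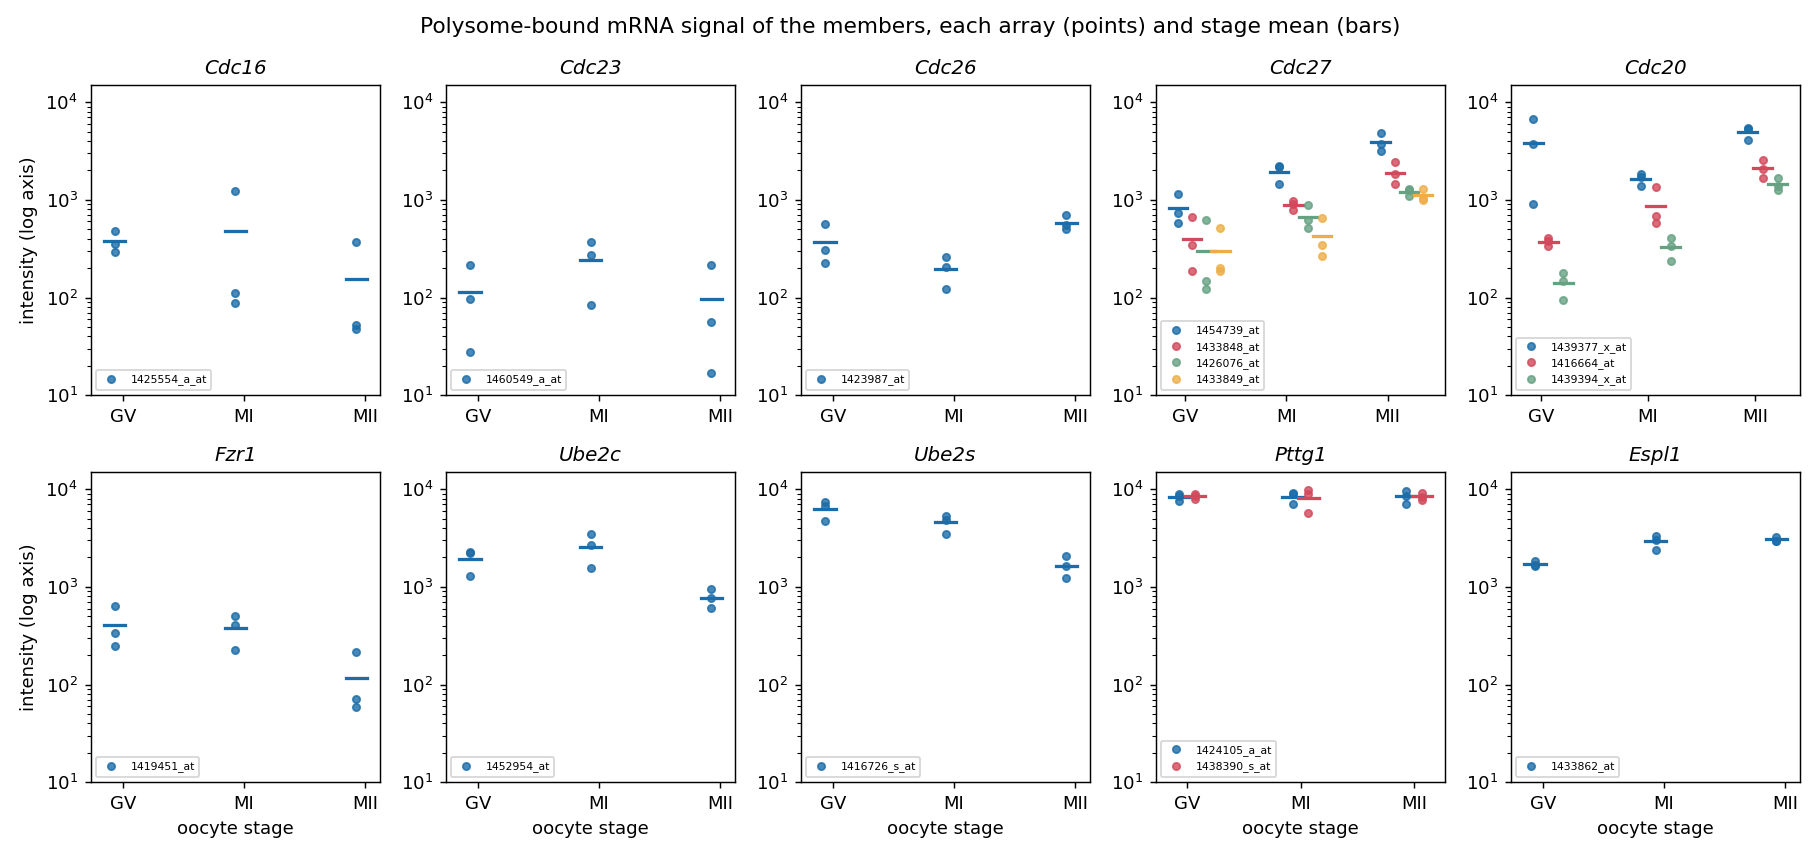
Intensity (log axis) of the 16 probe sets at or above the median gene, by oocyte stage. Points are single arrays and bars are means of 3 arrays. All 3 MII arrays of Cdc27 lie above all GV arrays at each of its 4 probe sets, the MII arrays of Ube2c and Ube2s lie below all others, and those of Pttg1 lie among the others.

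Over every probe set, 7 of the 24 rose and 1 fell from GV to MII, where 3.75% of all probe sets rose and 5.23% fell. That balance turned with the scaling, since 1690 probe sets rose and 2354 fell as deposited, against 2264 up and 2169 down when quantile normalized, 2337 up and 2117 down at a common 95th percentile, and 2210 up and 2115 down with centred arrays. Of the 24, 7 rose and 1 fell under each of these scalings. Of the 7 that rose 4 belonged to Cdc27 and 2 to Cdc20, so they are not independent of each other. Of the 24, 1 rose and 2 fell between MI and MII, beside 1.57% up and 3.85% down over all probe sets. At this step 3 rose and 1 fell when quantile normalized or at a common 95th percentile, and 4 rose and 1 fell with centred arrays. The 8 dim probe sets, of Cdc16, Cdc23, Cdc26, Ube2s and Pttg1, had mean intensities over all arrays of 3.18 to 30.9, and none passed in any comparison.

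Promoter windows of 5 genes are shown because their calls in MII ran in 2 directions. They were up for Cdc27, Espl1 and 2 probe sets of Cdc20, and down for Ube2c and Ube2s. The window of Cdc26, which rose from MI to MII, is not shown. Each window holds the 250 bases before the gene's start, from RefSeq on GRCm38.p6, read from the gene's own strand. Capitals mark the cell cycle homology element TTTGAA, which reads TTCAAA on the opposite strand, and the CCAAT box, which reads ATTGG there. Both are motifs known from promoters of genes of G2 and M phase.
Cdc27 (chr11:104550621-104550870, minus strand): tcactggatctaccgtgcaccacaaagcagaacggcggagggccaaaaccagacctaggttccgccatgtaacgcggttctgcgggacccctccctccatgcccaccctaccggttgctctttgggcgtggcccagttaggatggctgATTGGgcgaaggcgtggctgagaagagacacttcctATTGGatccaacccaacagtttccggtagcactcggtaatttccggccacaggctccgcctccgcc
Cdc20 (chr4:118437344-118437593, minus strand): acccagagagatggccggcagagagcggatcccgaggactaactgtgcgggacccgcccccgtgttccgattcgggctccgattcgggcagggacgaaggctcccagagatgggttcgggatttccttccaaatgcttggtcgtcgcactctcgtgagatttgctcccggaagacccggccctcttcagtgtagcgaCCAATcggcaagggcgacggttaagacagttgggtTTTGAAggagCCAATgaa
Espl1 (chr15:102296043-102296292, plus strand): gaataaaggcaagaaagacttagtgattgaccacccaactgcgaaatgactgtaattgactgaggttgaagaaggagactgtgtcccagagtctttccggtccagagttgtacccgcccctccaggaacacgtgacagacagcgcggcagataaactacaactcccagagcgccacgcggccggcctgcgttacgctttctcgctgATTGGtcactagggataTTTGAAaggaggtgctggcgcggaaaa
Ube2c (chr2:164769679-164769928, plus strand): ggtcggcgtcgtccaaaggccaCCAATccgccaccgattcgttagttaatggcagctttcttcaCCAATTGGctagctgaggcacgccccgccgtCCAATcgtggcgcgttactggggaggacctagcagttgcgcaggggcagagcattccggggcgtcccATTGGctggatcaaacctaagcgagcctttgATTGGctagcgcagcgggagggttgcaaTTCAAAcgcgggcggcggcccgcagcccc
Ube2s (chr7:4812341-4812590, minus strand): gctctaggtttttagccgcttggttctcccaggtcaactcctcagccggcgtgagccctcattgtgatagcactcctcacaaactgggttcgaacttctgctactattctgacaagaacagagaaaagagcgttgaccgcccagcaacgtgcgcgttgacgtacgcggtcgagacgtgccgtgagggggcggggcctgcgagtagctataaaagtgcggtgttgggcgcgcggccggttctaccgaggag
TTTGAA on either strand occurred in the windows of Cdc20, Espl1 and Ube2c, 18, 27 and 29 bases before the start. It was in 3 of the 9 windows that RefSeq's table held for the 10 genes, and in 15.99% of all 32851 windows. CCAAT on either strand occurred in 5 of the 9, those of Cdc27, Cdc20, Fzr1, Ube2c and Espl1, and in 33.8% of all windows. Ube2c had 6 such matches, 2 of which overlap in CCAATTGG. The windows of Cdc16, Cdc26, Ube2s and Pttg1 had neither motif. Both motifs occurred in genes that rose and in a gene that fell. Neither occurred in Cdc26, which rose from MI to MII, or in Ube2s, which fell. A match is a description of letters and not a binding site. The arrays measured polysome-bound mRNA and not transcription, and any link of motifs to these changes was not tested.

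Among the TPR subunits, Cdc27, a scaffold of the lobe that binds the tails of the activators, rose over maturation. Its brightest probe set, 1454739_at, had intensities of 1151, 583 and 736 in GV, 2216, 2149 and 1450.3 in MI, and 4787, 3142 and 3720.2 in MII. The 3 stages did not overlap: every MI array lay above every GV array, and every MII array above both. The mean was 3883 ± 835 in MII, against 823 ± 294 in GV (SD, n = 3 each), a log2 change of 2.25 (SE 0.32, 4.76-fold, adjusted p = 0.00348 over all genes). The call held in each of the 9 fits that left out 1 array, with adjusted p from 0.00448 to 0.0156. The log2 change of Cdc27 from MI to MII was 1.00 (adjusted p = 0.1), a change that passed when arrays were quantile normalized (1.27, adjusted p = 0.0218), scaled to the same 95th percentile (1.21, adjusted p = 0.0271) or centred on their medians (1.19, adjusted p = 0.041).

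The other 3 probe sets of Cdc27 moved alike. Probe set 1433848_at had 668, 185 and 347 in GV, 971, 792 and 901 in MI, and 1849, 1449 and 2413 in MII, and rose by 2.35 from GV to MII (SE 0.42, adjusted p = 0.0131 over 45037 probe sets). It passed in all 9 fits that left out 1 array. Probe set 1426076_at rose by 2.31 (adjusted p = 0.0376), with 1246, 1290.04 and 1083 in MII, against 624, 149 and 124 in GV. Probe set 1433849_at rose by 1.98 (adjusted p = 0.033), with 1051, 1306 and 1001 in MII, against 520.05, 185 and 199.6 in GV. In these 3 probe sets the array GV 1 was the highest of its stage, and no MII array overlapped with GV. The call of 1426076_at was lost without any single array except GV 1 (adjusted p = 0.0541 to 0.117), and that of 1433849_at without GV 2, GV 3, MI 2 or any MII array (adjusted p = 0.0555 to 0.105).

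Cdc26, a small subunit that stabilises Cdc16, had its lowest mean in MI. Its only probe set above the median gene, 1423987_at, had 223, 566 and 309 in GV, 204, 122 and 259 in MI, and 698, 557 and 497 in MII. All MII arrays lay above all MI arrays, while MII and GV overlapped. Cdc26 rose from MI to MII by 1.55 (SE 0.39, 2.93-fold, adjusted p = 0.0447 over all genes), with 584 ± 103 in MII and 195 ± 69.1 in MI (SD, n = 3 each). The adjusted p was 0.06 over all probe sets and 0.121 with the mean of its 4 probe sets, 0.1 with a pseudocount of 1 and 0.0739 with limma's trend option. It was 0.0653 to 0.133 without GV 3, MI 1, MI 2, MII 1, MII 2 or MII 3. From GV to MII the log2 change was 0.74 (95% interval -0.15 to 1.63, adjusted p = 0.294).

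Cdc16 and Cdc23, which form the body of the TPR lobe with Cdc27, varied as much between arrays of a stage as between stages. Cdc16 had 482, 291 and 351 in GV, 1230.2, 109.95 and 88.1 in MI, and 367, 47.4 and 51.8 in MII. Array 1 was the highest of the 3 at every stage, and the stages overlapped. The log2 change of Cdc16 from GV to MII was -1.70 with a 95% interval of -4.07 to 0.68 (adjusted p = 0.375). Cdc23 had 95.6, 216 and 28 in GV, 369, 274 and 83.5 in MI, and 17, 214 and 55.5 in MII. These ranges also overlapped, and its log2 change from GV to MII was -0.36 with an interval of -2.38 to 1.67 (adjusted p = 0.878). Intervals this wide include changes as large in size as that of Cdc27.

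**Figure D2:**
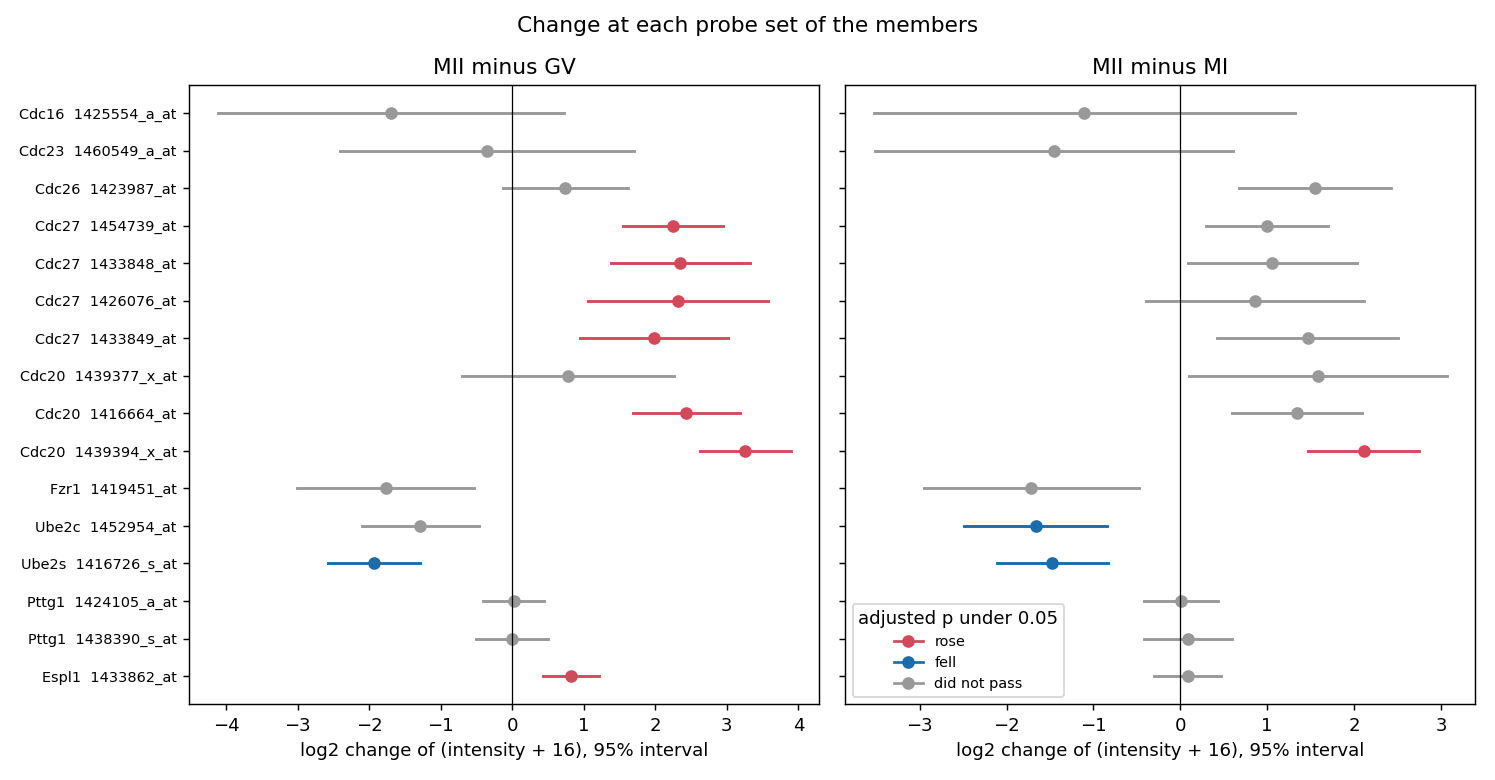
Log2 change of intensity + 16 at each of the 16 probe sets at or above the median gene, MII minus GV on the left and MII minus MI on the right, with 95% intervals from limma's fit over all probe sets. Red marks a rise and blue a fall at an adjusted p under 0.05 over 45037 probe sets. All 4 probe sets of Cdc27 and 2 of 3 of Cdc20 are red on the left, and the intervals of Pttg1 are narrow around 0.

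Of the activators, Cdc20 gave a result that depended on the probe set. Probe set 1416664_at had 379.9, 338 and 403 in GV, 675, 577 and 1356 in MI, and 1686, 2577 and 2079.9 in MII. Probe set 1439394_x_at had 176, 147 and 95.2 in GV, 340.4, 234 and 411 in MI, and 1272, 1653 and 1399 in MII. In both, the 3 stages stood apart without overlap and in the same order, where MII lay wholly above GV at 12.7% of all probe sets, MII above MI at 10.5% and MI above GV at 5.98%. From GV to MII 1416664_at rose by 2.43 (SE 0.32, 5.4-fold, adjusted p = 0.00425) and 1439394_x_at by 3.26 (SE 0.27, 9.57-fold, adjusted p = 0.00104). Each passed in all 9 fits that left out 1 array, with adjusted p at most 0.0191 and 0.00604.

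The third and brightest probe set of Cdc20, 1439377_x_at, had 3739, 899 and 6793 in GV, 1819.8, 1372 and 1726 in MI, and 4116, 5279 and 5412 in MII. Its MII arrays lay above its MI arrays, but its GV arrays spanned both stages, and GV 3 was the brightest array of all 9. Its log2 change from GV to MII was 0.78 with a 95% interval of -0.69 to 2.25 (adjusted p = 0.546 over all genes), and -0.04 without GV 2. As the brightest, this probe set stands for Cdc20 in the fit over genes. With the mean of all 3 probe sets in its place, Cdc20 rose by 2.16 from GV to MII (adjusted p = 0.00309) and by 1.68 from MI to MII (adjusted p = 0.0125). In Affymetrix names, the ending x marks a probe set with some probes that are also close to other sequences, which applies to 1439377_x_at and 1439394_x_at and not to 1416664_at.

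Between MI and MII, 1439394_x_at rose by 2.11 (SE 0.27, adjusted p = 0.00636), and the change of 1416664_at was 1.35 (SE 0.32, adjusted p = 0.0574). Without the array MI 3, the brightest MI array of 1416664_at, its change was 1.71 and passed (adjusted p = 0.0113). MI 3 was also the array with the most signal of granulosa, cumulus and theca markers, and their part in the value was not tested. From GV to MI the changes were 1.09 and 1.15 at these 2 probe sets and -0.80 at 1439377_x_at, and none passed.

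Fzr1, the activator that helps to keep the GV arrest, had 246, 338 and 633 in GV. It had 227, 506 and 407 in MI, and 58.6, 217 and 70.7 in MII. Every MII array lay below every MI and GV array, as for 15.3% of all genes against MI and 17.3% against GV. The log2 change was -1.77 from GV to MII (SE 0.54, 95% interval -3.01 to -0.54, adjusted p = 0.0658) and -1.72 from MI to MII (adjusted p = 0.0945), and neither passed. Without MII 2, the brightest of the MII arrays, both passed, at -2.28 (adjusted p = 0.0253) and -2.23 (adjusted p = 0.0393), and the change from GV to MII also passed without the dimmest 40% of genes (0.0443). The mean was 116 ± 88.4 in MII, 380.03 ± 142 in MI and 405 ± 202 in GV (SD, n = 3 each).

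Both E2 enzymes fell from MI to MII, and Ube2s fell from GV to MII as well. Ube2s, which extends ubiquitin chains on APC/C substrates, had 4708, 6796 and 7466 in GV, 5315, 4879 and 3511 in MI, and 2074, 1617 and 1241 in MII at 1416726_s_at. The MII arrays lay below all others, and GV and MI overlapped. Ube2s fell by 1.94 on the log2 scale from GV to MII (SE 0.29, 3.83-fold lower, adjusted p = 0.00468 over all genes), with 1644 ± 417 in MII and 6323 ± 1438 in GV (SD, n = 3 each). That call held in all 9 fits that left out 1 array, with adjusted p at most 0.0196. Between MI and MII, Ube2s fell by 1.47 (SE 0.29, adjusted p = 0.0197), but the adjusted p was 0.0536 to 0.0697 when MI 1, MI 2, MII 2 or MII 3 was left out. It was 0.0852 with a pseudocount of 1 and 0.076 with its probe sets averaged. The ending s of this probe set marks probes shared by several transcripts, so near-identical copies of Ube2s may add to its signal.

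Ube2c, which starts the chains, had 1299.7, 2209 and 2271 in GV, 1548, 2695 and 3453 in MI, and 762, 604 and 940.2 in MII. Here too every MII array lay below every MI and GV array. Ube2c fell by 1.66 from MI to MII (SE 0.37, 3.17-fold lower, adjusted p = 0.0281), with 769 ± 168 in MII and 2565 ± 959 in MI (SD, n = 3 each). The call was lost without MI 2, MI 3 or any MII array (adjusted p = 0.0568 to 0.0912), when quantile normalized (0.0622), at a common 95th percentile (0.0697), with a pseudocount of 1 (0.0768) and with only MI and MII in the fit (0.0544). From GV to MII the log2 change was -1.29 (adjusted p = 0.053), which passed without GV 1 (adjusted p = 0.045), MI 1 (0.0354) or MI 3 (0.0443). It also passed with only GV and MII in the fit (0.0488) and with limma's trend option (0.038). Averaging the probe sets of every gene gave a pass as well (0.0451). Ube2c has only 1452954_at, so its own values were the same in that fit. The summed markers of granulosa, cumulus and theca cells were also lower in MII, at 329 to 677. They were 899 to 1446 in MI and 881 to 962 in GV. Most of the sum on GV 1, GV 2, MI 1, MI 2 and MII 1 was Cyp11a1. This gene had 782, 680 and 130 in GV, 490, 761 and 338 in MI, and 394, 19.5 and 75.3 in MII. Star, the brightest of these markers on GV 3, had 46, 40.3 and 403 in GV and 67.2, 76.8 and 96.6 in MII. The lower sum in MII thus rests largely on few genes. From 2 to 4 of these markers lay at or above the median gene on each GV array, and likewise on each MII array. The summed oocyte markers were lower too, 32318 to 38258 in MII against 50804 to 55810 in MI and 57622 to 61715 in GV. Single oocyte markers did not all move this way. Zp2 had 2166, 2055 and 868 in MII, against 6717, 8211 and 8120 in GV. Oosp1 had 8072, 8849 and 9069 in MII, against 4229, 4545 and 3332 in GV. The part of either marker set in the falls of both E2 enzymes was not tested.

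Securin showed no change that passed. Pttg1 at 1424105_a_at had 7533, 8968 and 8416 in GV, 8920.04, 9216 and 7029 in MI, and 7115, 8584 and 9644 in MII. The second probe set, 1438390_s_at, had 8961, 8434 and 7956 in GV, 9755, 8906 and 5699 in MI, and 7801, 8401 and 9042 in MII. The stages overlapped at both probe sets. The log2 change of 1424105_a_at was 0.01 from GV to MI (95% interval -0.48 to 0.50), 0.01 from MI to MII (interval -0.48 to 0.50) and 0.02 from GV to MII (interval -0.47 to 0.51, adjusted p = 0.98). These intervals leave out changes as large as those of Cdc27 or Ube2s, and within them a smaller change was not detectable here.

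Separase rose from GV to MII. Espl1, the protease that opens cohesin rings, had 1849, 1649.96 and 1687 in GV, 3006, 3353 and 2382 in MI, and 3272, 2979.6 and 2947 in MII. No GV array reached any MI or MII array, while MI and MII overlapped. Espl1 rose by 0.82 from GV to MII (SE 0.20, 1.77-fold, adjusted p = 0.0296 over all genes), with 3066 ± 179 in MII and 1729 ± 106 in GV (SD, n = 3 each). Each of the 6 fits that left out a GV or MII array lost the call (adjusted p = 0.0604 to 0.0896), with log2 changes of 0.77 to 0.87, as did a pseudocount of 1 (0.234) and leaving out the dimmest 40% of genes (0.0967). From GV to MI the log2 change was 0.74 (SE 0.20, adjusted p = 0.477), and from MI to MII it was 0.09 (interval -0.37 to 0.55).

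Other genes of the pathway were counted from a list of 28, of which 27 were measured while Ccnb1 was not analysed here. From GV to MII 3 of the 27 rose and 8 fell, beside 5.46% and 8.8% of all genes, with a median log2 change of -0.65. Of these 27, 1 rose and 5 fell between MI and MII, beside 2.54% and 6.78% of all genes, with a median of -0.50. Of the 10 other APC/C subunits 5 fell and 1 rose from GV to MII, with a median of -2.07. Anapc7, a further TPR subunit, fell by 3.78 (SE 0.47, adjusted p = 0.0023), with 23.3, 122 and 34.5 in MII, against 691, 1080.03 and 895 in GV. Anapc10, which helps the activators to bind substrates, rose by 4.17 (SE 0.48, adjusted p = 0.00188), with 1266, 2114 and 2196 in MII, against 155, 102 and 35.1 in GV. Both passed in all 9 fits that left out 1 array. Anapc5 fell by 2.18 (adjusted p = 0.00619) and Anapc16 by 1.95 (adjusted p = 0.00852), also in all 9 fits. The probe sets of Anapc10 and Anapc16 have the ending s and that of Anapc5 the ending x. For each of these pathway genes 1 probe set was used, and any others were not compared. Anapc13 fell by 3.43 (adjusted p = 0.0211), a call lost without GV 1, GV 2, MII 1 or MII 3 (adjusted p up to 0.0694). Anapc15 fell by 2.48 (adjusted p = 0.0261), a call lost without GV 1, GV 3, MII 2 or MII 3 (adjusted p up to 0.0853).

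Of the 6 inhibitors of the APC/C or its activators, the checkpoint proteins Bub1b and Mad2l1 rose and Bub3 fell from GV to MII. Bub1b rose by 1.68 (adjusted p = 0.0053, all 9 fits). Mad2l1 rose by 1.57 (adjusted p = 0.0184, lost without GV 2, MII 2 or MII 3, adjusted p up to 0.06). Bub3 fell by 1.39 (adjusted p = 0.0156, lost without GV 2 or MII 3, adjusted p up to 0.0553), at a probe set with the ending s. Of the 11 measured substrates, their partners and cohesin genes, Cdk1, the partner of cyclin B, fell by 5.54 (adjusted p = 0.00132), and the kinase Plk1 fell by 1.34 (adjusted p = 0.035). The call of Plk1 held only without GV 1 or MI 3 and was lost without any of the other 7 arrays (adjusted p up to 0.104). The 5 that fell between MI and MII were Anapc5 (-1.84), Anapc7 (-3.32), Anapc16 (-2.02), Bub3 (-2.28) and Cdk1 (-5.67), and Bub1b rose (1.22). Leaving out 1 array lost the call of Anapc5 (adjusted p up to 0.0663 when MI 1, MI 2, MII 2 or MII 3 was dropped) and of Bub1b (without MI 1, MI 2 or MII 3, adjusted p up to 0.0888) at this step.

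**Figure D3:**
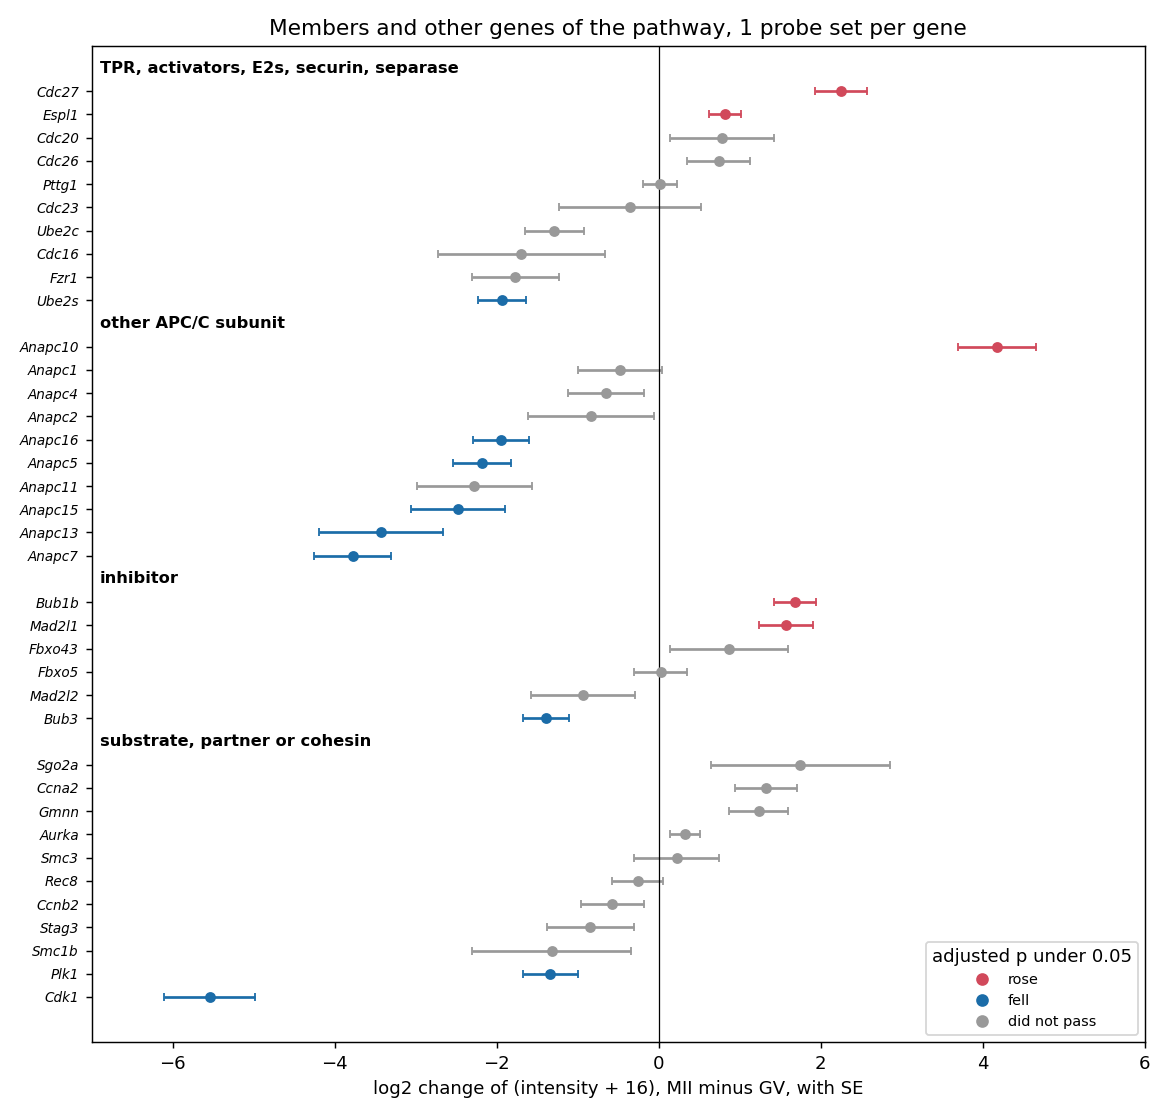
Log2 change of intensity + 16, MII minus GV, with its standard error, for the 10 genes and the 27 other genes of the pathway, 1 probe set per gene. Red marks a rise and blue a fall at an adjusted p under 0.05 over 18193 genes. Cdc27 and Anapc10 lie to the right while Ube2s, Anapc7 and Cdk1 lie to the left.

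Leaving out predicted and unnamed genes such as Riken names, 8752 genes at or above the median gene were searched for like patterns. In each role, the genes most correlated over the 9 arrays with the one of smallest p in limma's F test were picked. For Cdc27 these were Mbd3l2 (Pearson r = 0.991), Ncapg2 (0.988) and Jagn1 (0.987). For Fzr1 they were Arrdc1 (0.979), Spryd3 (0.968) and Dcxr (0.964). For Ube2s they were Uhrf1 (0.987), Noc4l (0.982) and Tubgcp2 (0.982), and for Espl1 Tmem47 (0.969), Rassf5 (0.96) and Zfp606 (0.959). Ncapg2, a subunit of the condensin II complex that compacts chromosomes, had 1842, 1423 and 1706 in MII, against 581, 403 and 398 in GV. These correlations are descriptions over 9 arrays that include the differences between stages, and they were the highest of many.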

How the data were processed

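The authors deposited 1 table of intensity values on a linear scale, used here unchanged, for 45101 probe sets on 9 one-colour Affymetrix arrays. Per the labels' protocols, RNA from polysomes was cleaned on columns, copied to cDNA, amplified linearly and biotin-labelled. The probe summary, background step and array scaling behind these values were not given in the sources used here. No detection calls came with the table. Leaving out 64 controls, 34945 probe sets had 1 gene symbol, 932 several and 9160 none.

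Values were transformed to log2(intensity + 16). The probe set with the highest mean log2 value stood for a gene, and 18193 genes (and, separately, 45037 probe sets) were fitted with stage means over all 9 arrays in limma 3.58.1 (lmFit, then eBayes, under R 4.3.3). Tests were two-sided, with a threshold of 0.05 on Benjamini-Hochberg adjusted p. The genes, the pathway list and the marker lists were chosen with earlier results of these data known. All 10 genes are named, other pathway genes where they passed from GV or MI to MII, and genes of like pattern by the 3 highest correlations per role. Alternatives were other pseudocounts, scalings, filters, probe set choices, variance models, a replicate block and leaving out each array.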

Additional observations from a re-analysis of the deposited data

How the results depend on the processing

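Limits: with 3 arrays per stage, most calls among the 10 genes lay close to the threshold, the deposited values carry no detection calls, and the upstream scaling is unknown. Scaling mattered for all genes: of those called from MI to MII 27.3% rose as deposited, 42.2% once quantile normalized, 41.3% at a common 95th percentile and 39.7% with arrays centred on their medians, which moved the median change of all genes to 0.17, against -0.02 as deposited. No call among the 10 genes turned its direction under any alternative. From MI to MII 3 genes were called, against 0 with pseudocount 1 and 0 to 4 with 1 array left out. From GV to MII 3 were called, against 5 with the mean of all probe sets, 5 with the replicate block and 2 to 4 with 1 array left out. The F test called 3, against 5 by averaging a gene's probe sets and 2 to 3 with 1 array left out. Of the 24 probe sets, 3 were called from MI to MII, against 1 with pseudocount 1, 5 with centred arrays and 1 to 4 with 1 array left out, and 8 from GV to MII, against 5 with pseudocount 1 and 5 to 8 with 1 array left out. From GV to MI the count was 0 in every alternative. The replicate block added Fzr1 (adjusted p = 0.0416) and Ube2c (adjusted p = 0.0344) from GV to MII and lost Cdc26 from MI to MII (adjusted p = 0.0898) and Cdc27 1426076_at from GV to MII (adjusted p = 0.0596). Same-numbered arrays had correlated deviations of 0.01 to 0.21, with 5 of 9 pairs over 0.1, against -0.23 to 0.11 for other numbers. That 7 of 9 arrays lay closest to their own number in both other stages is a hint from the data of something shared by number. The labels do not say what a number marks, and not every pair passed 0.1, so the block was not used elsewhere. With pseudocount 1 Cdc27 1426076_at (adjusted p = 0.0516) and 1433849_at (0.0612) were lost from GV to MII, the first also with only those 2 stages in the fit (0.0838).

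Changes of these genes that did not pass could also change sign. From GV to MI, Cdc20 was 0.48 with its probe sets averaged and Pttg1 was -0.0183 with centred arrays. With 1 array left out at this step Cdc16 ranged from -1.74 to 0.0501, Fzr1 from -0.345 to 0.31, Pttg1 from -0.0651 to 0.1299 and Pttg1 1438390_s_at from -0.244 to 0.143. Between MI and MII, Pttg1 was -0.0083 when quantile normalized and -0.0028 with its probe sets averaged. Left-out arrays gave Cdc16 -1.95 to 0.0439, Pttg1 -0.1129 to 0.1273, Pttg1 1438390_s_at -0.1499 to 0.237 and Espl1 -0.0514 to 0.1937. Between GV and MII they gave Cdc23 -1.1 to 0.2967, Cdc20 -0.0408 to 1.41, Pttg1 -0.0839 to 0.135 and Pttg1 1438390_s_at -0.06 to 0.0463. That probe set was 0.1014 (quantile), 0.21 (common 95th percentile) and 0.1534 (centred) from GV to MII. The cause was not tested.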
